A study of Mus musculus with 20 samples.

Results

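The genes examined were 6 members of prostaglandin metabolism, chosen by gene symbol from the 31055 features counted in both matrices. They are the cyclooxygenases Ptgs1 and Ptgs2, the terminal synthases Ptges and Ptgds, the receptor Ptger4 and the breakdown enzyme Hpgd. Their levels were read in cells of mouse dorsal skin labelled as epidermis, taken in anagen, when hair follicles grow. The mutant group had the genotype Nfatc1-CreER;R26R;mTmG;Fgf5-/-, with 16 listed samples and tamoxifen for 3 days from postnatal day 23 or 24. The control group had the genotype Nfatc1-CreER;R26R;mTmG, with 4 listed samples and tamoxifen for 3 days from postnatal day 21 or 22. Both groups therefore carry the Nfatc1-driven, tamoxifen-switched recombinase and the colour-changing mTmG membrane reporter. The day of treatment differs with the genotype, and the 2 cannot be told apart.

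Prostaglandins are short-lived lipid signals made from arachidonic acid that phospholipases release from membranes. Cyclooxygenases turn it into prostaglandin H, which terminal synthases convert into the single prostaglandins, and these act on cell surface receptors until they are taken up and oxidised. In skin, prostaglandin E is a known mediator of inflammation and of keratinocyte growth, and prostaglandin D is known to inhibit hair growth. Fgf5, a secreted fibroblast growth factor, is known to help bring anagen to its end, and the study compared the cells of anagen skin with and without it.

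The promoters of 4 members show the sequence from which each gene starts. Each stretch runs from 250 bases before to 50 bases after the RefSeq start (GRCm38.p6), and all 6 members matched an entry of that table. Ptgs2, Ptges and Ptger4 are shown because all 3 were higher in the mutant suprabasal keratinocytes, and Hpgd because it was lower in mutant dermal cells. The stretches are chr1:150099781-150100080 on the plus strand for Ptgs2, chr2:30903248-30903547 on the minus strand for Ptges, chr15:5244138-5244437 on the minus strand for Ptger4 and chr8:56294302-56294601 on the plus strand for Hpgd. Capitals mark matches to the searched motifs.
Ptgs2: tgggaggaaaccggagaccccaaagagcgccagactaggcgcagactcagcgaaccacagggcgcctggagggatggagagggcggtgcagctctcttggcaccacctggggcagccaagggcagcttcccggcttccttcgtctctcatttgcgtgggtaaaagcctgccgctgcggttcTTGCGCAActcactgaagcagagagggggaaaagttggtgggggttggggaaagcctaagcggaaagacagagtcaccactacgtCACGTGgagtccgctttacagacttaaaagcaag
Ptges: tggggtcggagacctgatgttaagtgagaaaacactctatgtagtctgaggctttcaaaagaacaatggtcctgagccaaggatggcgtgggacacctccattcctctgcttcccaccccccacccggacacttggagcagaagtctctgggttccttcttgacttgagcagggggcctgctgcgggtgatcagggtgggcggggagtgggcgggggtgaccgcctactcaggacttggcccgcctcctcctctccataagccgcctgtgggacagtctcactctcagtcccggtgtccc
Ptger4: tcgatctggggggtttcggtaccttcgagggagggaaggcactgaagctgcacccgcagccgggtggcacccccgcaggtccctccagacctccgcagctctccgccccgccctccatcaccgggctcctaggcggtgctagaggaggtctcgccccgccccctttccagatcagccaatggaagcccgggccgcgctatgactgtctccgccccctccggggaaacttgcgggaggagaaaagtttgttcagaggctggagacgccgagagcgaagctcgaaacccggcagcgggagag
Hpgd: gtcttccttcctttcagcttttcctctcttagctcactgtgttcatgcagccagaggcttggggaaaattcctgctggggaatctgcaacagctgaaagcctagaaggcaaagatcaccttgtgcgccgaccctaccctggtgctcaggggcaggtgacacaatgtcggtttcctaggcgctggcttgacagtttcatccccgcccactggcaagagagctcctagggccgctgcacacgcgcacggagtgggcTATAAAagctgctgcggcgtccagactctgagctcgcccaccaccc
The search covered 6 motifs on both strands, chosen after the values were seen: the TATA box TATAAA, the cyclic AMP response element TGACGTCA, the AP-1 site TGAGTCA, the E-box CACGTG, the M-box CATGTG and the C/EBP site TTNCGCAA. In Ptgs2 the C/EBP letters began 69 bases before the start and the E-box letters 16 bases after it. Of 32851 promoters of this length, 0.798% hold the C/EBP letters and 7.15% the E-box letters. The Hpgd stretch holds the TATA box letters, which began 4 bases after the RefSeq start and are found in 13.6% of promoters. GENCODE puts the start of Hpgd further on, at chr8:56294585, and the letters lie before that start. The Ptges, Ptger4 and Ptgs1 stretches hold none of the 6 motifs. The Ptgds stretch (chr2:25469700-25469999, minus strand) holds the AP-1 letters on its other strand, beginning 35 bases before the start, as do 5.20% of promoters. Each match is a run of letters, and no binding was measured.

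Each group was deposited as 1 pooled matrix, so every value below is 1 value per group with no replicate behind it, and nothing was tested. The mutant matrix held 13411 barcodes with 97817173 unique molecules (UMIs) and the control matrix 16973 barcodes with 140880809 UMIs. After filtering, 11043 mutant cells (median 6000 UMIs) and 13640 control cells (median 5569 UMIs) were left, with a median of 4.92% mitochondrial UMIs in mutant cells and 3.21% in control cells, and 59 barcode sequences occurred in both libraries. Clusters fell into 25 classes, of which 24 with at least 50 cells in each library were compared. Dermal papilla, fibroblast, pericyte, endothelial, Schwann, lymphoid and red blood cell-like classes were present beside the keratinocytes, although the label names epidermis. Fgf5 transcripts were counted in both libraries, at 9.13 CPM in mutant cells and 12.1 CPM in control cells. The labels do not describe the allele, and a tag at the 3′ end may lie outside a deleted part, so this checks nothing.

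Levels are counts per 1000000 UMIs of the class (CPM), and each ratio is the log2 of mutant over control CPM with its 95% counting interval in parentheses. The words higher, lower, rose and fell without a value follow a size rule: the levels differ 2-fold or more, the interval's bound nearer to 0 exceeds 1.5-fold, and 1 library reaches 20 CPM. A member is called measured in a class where at least 1 library reached 20 CPM. Of 144 pairs of a member and a class, 66 were measured, and 15 were higher and 8 lower in the mutant library. Ptgs2 was higher in 6 classes and lower in none, Ptges in 3 and none, Ptgs1 in 1 and none, Ptger4 in 1 and 1, and Ptgds in 4 and 4. Hpgd was higher in no class and lower in 3. Over its measured classes the median ratio was 1.70 for Ptgs2, 0.97 for Ptges, 0.78 for Ptgds, 0.37 for Ptgs1, 0.10 for Ptger4 and -1.66 for Hpgd. A class that reached 20 CPM in only 1 library has the direction of its ratio fixed by that minimum.

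These counts stand against shares of all measured genes that differ widely between classes. In the suprabasal class 4 of 5 measured members passed the rule, against 23% of all genes, whose median ratio was -0.23. In the basal class 2 of 5 passed, against 20% of all genes with a median of -0.15, so the libraries differed there in many genes. In the upper follicle class 2 of 5 passed, against 15.2% of all genes, and in the Langerhans or dendritic cell-like class 2 of 5, against 15.7%. In the dermal papilla cell-like class 1 of 3 passed, against 16.6%, and in the T cell or NK cell-like class 1 of 2, against 12.3%. Far fewer of all genes passed in the remaining classes with a member called. In cluster 15, 3 of 5 members passed, against 4.46% of all genes. In the fibroblast-like class 3 of 4 passed, against 7.76%, and in the pericyte-like class 3 of 4, against 4.25%. In cluster 17, 1 of 3 passed, against 3.71%, and in the hair cortex or cuticle class the only measured member, Ptgds, passed, against 7.93%. No member passed in the remaining 13 classes. Ptgds gave 4 of the 15 higher and 4 of the 8 lower calls. It was the only member called in the dermal papilla and hair cortex or cuticle classes. In cluster 15 and the fibroblast-like and pericyte-like classes it was 1 of the 3 called. Its level in these classes apart from melanocyte RNA was not shown, as described below.

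**Figure D1:**
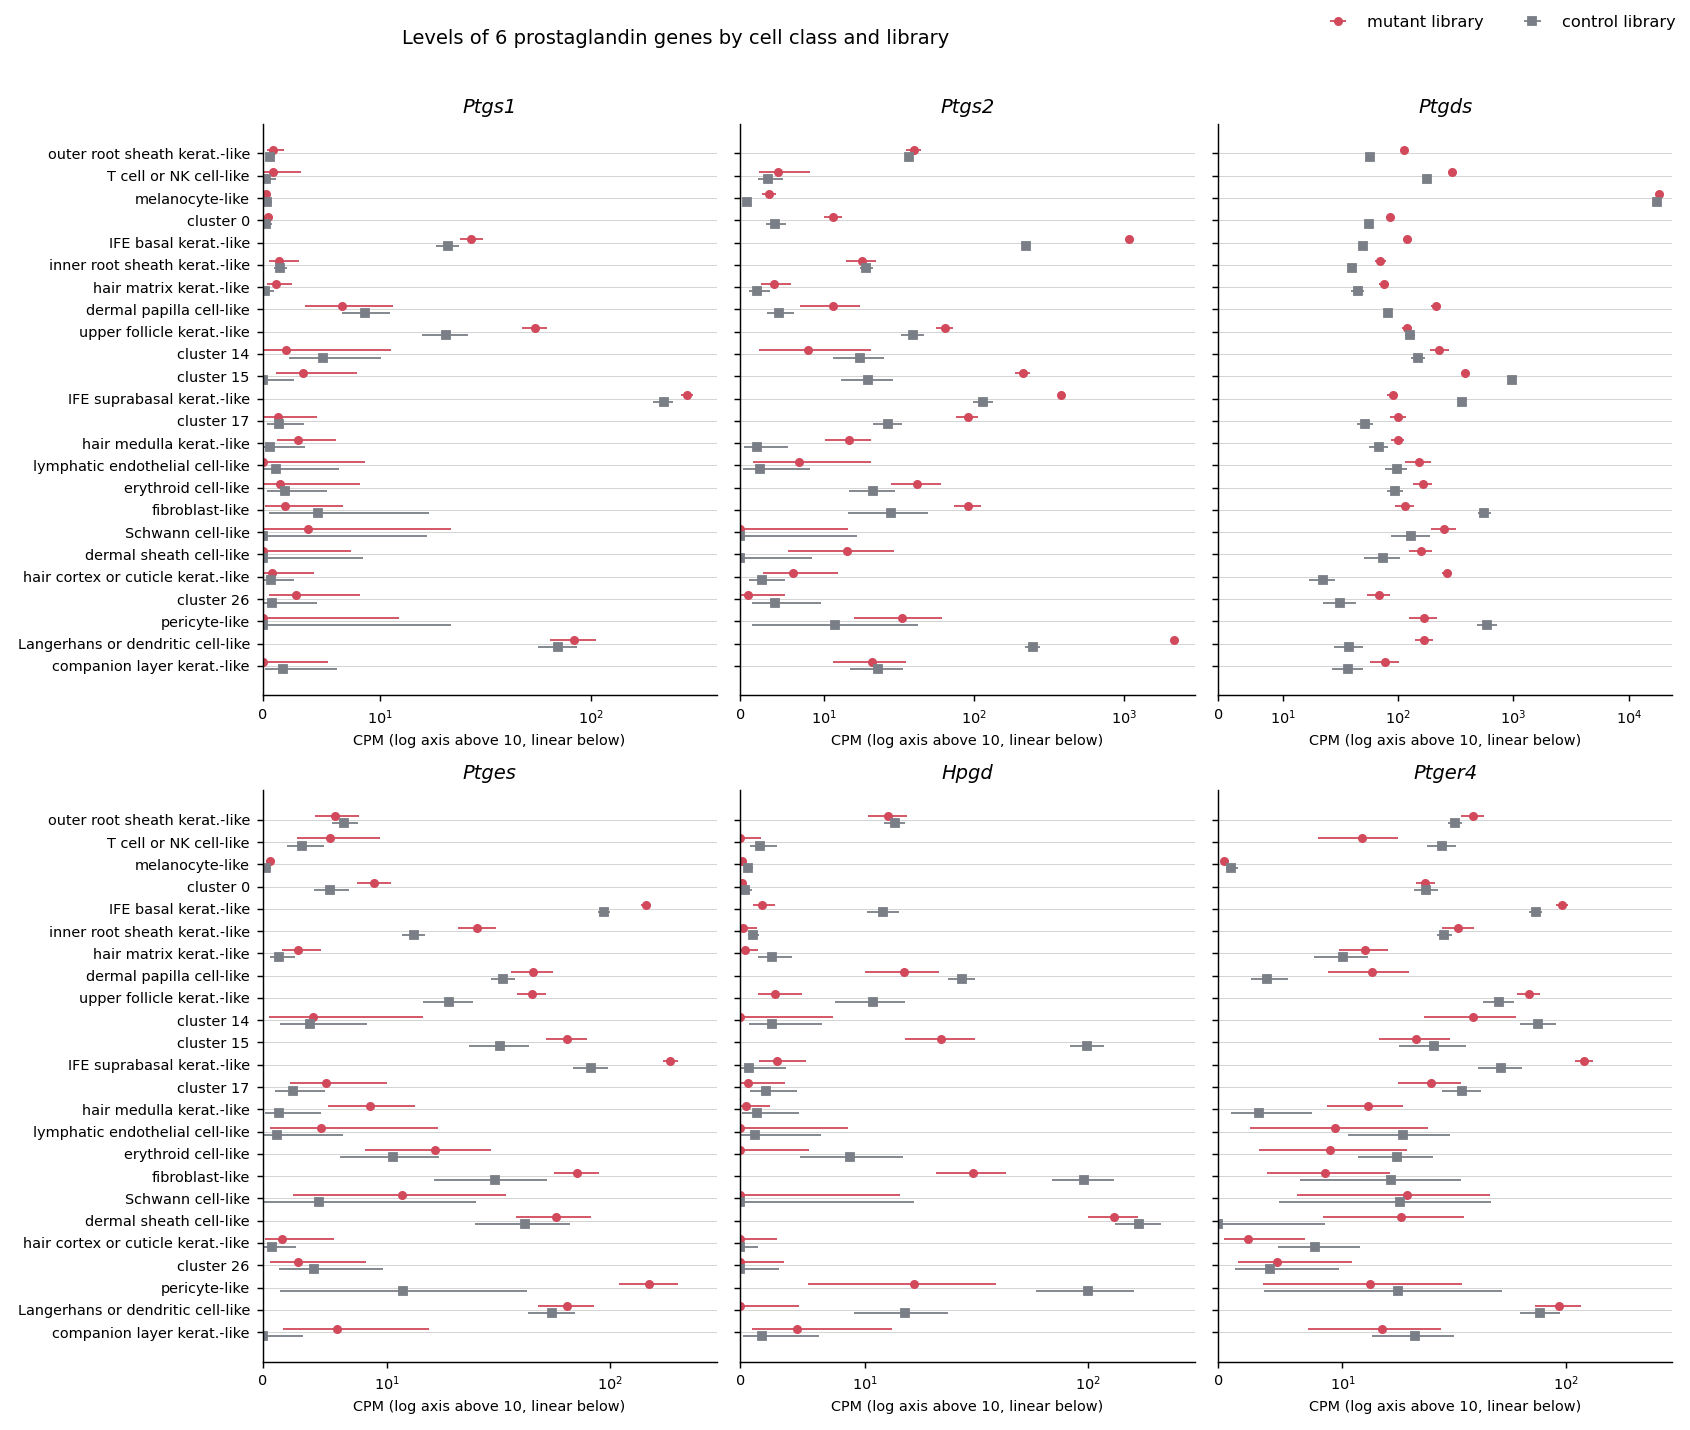
Level of each gene (CPM, log axis above 10 and linear below) in the mutant library (red circles, upper) and the control library (grey squares, lower) for the 24 compared classes, with exact 95% Poisson intervals. Ptgs2 is highest in the Langerhans or dendritic cell-like and basal classes (2169 and 1087 CPM in mutant cells), Ptgs1 in the suprabasal class, Ptgds in melanocyte-like cells and Hpgd in dermal sheath cell-like cells.

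Ptgs2, the inducible cyclooxygenase, was high in interfollicular keratinocytes. Among the compared classes, the Langerhans or dendritic cell-like one was above them in mutant skin, and its interval overlapped that of the basal class in control skin. In interfollicular keratinocytes and cluster 15 the mutant level was 3.32 to 10.7 times the control level. In the basal class it had 1087 CPM in mutant cells (1066 to 1109, 10131 UMIs) and 222 CPM in control cells (214 to 231, 2680 UMIs), a ratio of 2.29 (2.23 to 2.35). In the suprabasal class it had 382 CPM in mutant cells and 115 CPM in control cells, a ratio of 1.73 (1.5 to 1.97). In both layers of the interfollicular epidermis the intervals were far apart. Follicle keratinocytes had less, with 63.9 CPM in mutant cells and 39.2 CPM in control cells of the upper follicle class, a ratio of 0.71 that did not pass the rule. The outer root sheath class had 39.7 CPM in mutant cells and 37.0 CPM in control cells, and their intervals overlapped. Over the 24 classes the median Ptgs2 level was 16.3 CPM in the mutant library and 14.6 CPM in the control library.

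Dermal and follicle clusters with little Ptgs2 in control skin also rose. In cluster 15, which carries fibroblast markers (28572 CPM summed in mutant cells and 29126 CPM in control cells) and is led by Coch, Fmod and Tnmd, Ptgs2 had 212 CPM in mutant cells and 19.7 CPM in control cells. The ratio was 3.42 (2.85 to 4.05), from 307 mutant and 27 control UMIs. A Ptgs2 UMI was found in 56 of the 329 mutant cells of cluster 15. The 33 with most Ptgs2 held 91.5% of the mutant UMIs, and 3 of them held 96 UMIs. Without the 3 highest cells of each library the ratio was 3.74. The fibroblast-like class had 91.4 CPM in mutant cells and 28.2 CPM in control cells. Its ratio of 1.70 (0.83 to 2.70) no longer passed the rule with thinned cells. Cluster 17, the follicle cluster with Fgf5 among its leading genes, had 90.8 CPM in mutant cells and 26.8 CPM in control cells, a ratio of 1.76 (1.35 to 2.18). The fibroblast-like and cluster 17 levels did not differ beyond their intervals in either library.

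The basal ratio covers different clusters in the libraries. Cluster 3 held 1304 mutant and 24 control cells, cluster 8 held 65 mutant and 1013 control cells, and cluster 27 held 164 control cells and no mutant cell. Ptgs2 was left out of the clustering, yet it stands among the 10 leading genes of cluster 3 with Epgn, Ccl20 and Tslp. Within cluster 3 it had 1120 CPM in mutant cells and 624 CPM in control cells, and within cluster 8 it had 113 CPM in mutant cells and 211 CPM in control cells. With equal weight on the clusters found in both libraries the basal levels were 616 CPM in mutant cells and 418 CPM in control cells, a ratio of 0.56 that no longer passed the rule. The higher basal level thus moves with the cluster to which the cells belong, and cluster and library cannot be told apart. Relative to all genes the basal ratio was larger, since TMM scaling raises every basal ratio by 0.26, every suprabasal ratio by 0.47 and every fibroblast-like ratio by 0.28. In the other 21 classes it moves ratios by -0.15 to 0.19.

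Ptgs2 was carried by a minority of strongly positive basal cells. A UMI was found in 61.1% of mutant basal cells and 41.1% of control basal cells. After each cell was thinned to 1500 UMIs, which left out 6 mutant and 33 control cells, the shares were 42.5% of mutant cells and 18.3% of control cells. The share with 5 or more UMIs was 29.2% of mutant cells and 13.2% of control cells. The 10% of cells with most Ptgs2 held 68.0% of the UMIs in mutant basal cells and 69.6% in control basal cells, and the highest single cell had 251 UMIs in the mutant library and 99 in the control library. Melanocyte-like cells, a class at 3.38 CPM in the mutant library and 0.739 CPM in the control library, give the background. After thinning, 0.501% of mutant and 0.321% of control melanocyte-like cells had a Ptgs2 UMI. Before thinning it was 3.02% of mutant cells and 0.996% of control cells, at a median of 12930 UMIs in mutant melanocyte-like cells and 13922 in control ones, against 4918 in mutant and 5783 in control basal cells.

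Basal cells rich in Ptgs2 were also rich in Tslp, an epithelial cytokine that acts on dendritic and lymphoid cells. Basal cells with 5 or more, 1 to 4 and 0 Ptgs2 UMIs had 5893, 1498 and 378 CPM of Tslp in the mutant library. The same groups had 1171, 179 and 80.1 CPM of Tslp in the control library. The order held in both libraries, and Ptger4 followed it with a smaller step, at 118, 87.1 and 67.0 CPM in mutant cells and 92.2, 71.8 and 57.4 CPM in control cells. Ptges did not follow it in mutant cells, where it had 103, 170 and 194 CPM, and it had 115, 83.8 and 82.7 CPM in control cells. Slco2a1, the prostaglandin uptake transporter, had 219, 267 and 278 CPM in mutant cells and 131, 146 and 141 CPM in control cells. The groups differ in depth, with median totals of 7054, 4632 and 4293 UMIs in mutant cells and 19880, 6392 and 4866 UMIs in control cells, and its part in these levels was not tested. A UMI of both Ptgs2 and Ptges was found in 31.9% of mutant basal cells and 24.2% of control basal cells.

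**Figure D2:**
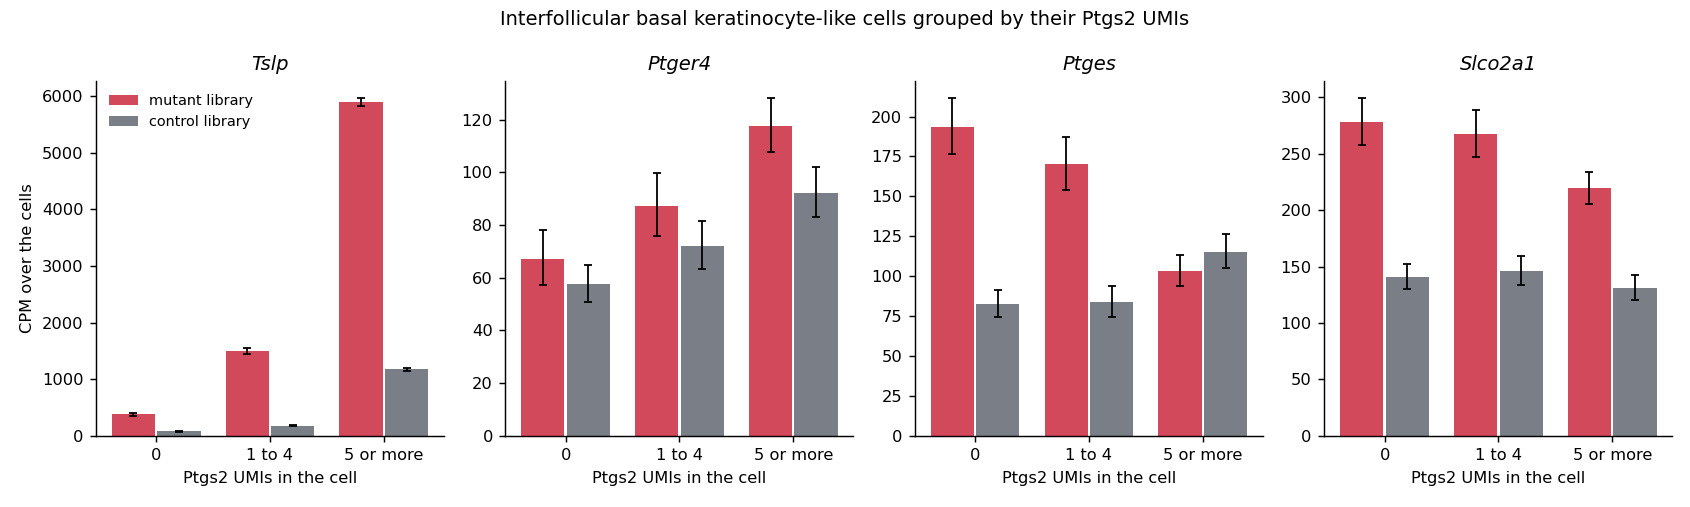
CPM of Tslp, Ptger4, Ptges and Slco2a1 over interfollicular basal keratinocyte-like cells with 0, 1 to 4 and 5 or more Ptgs2 UMIs (horizontal axis), with mutant bars (red) left of control bars (grey) and exact 95% Poisson intervals. Tslp reaches 5893 CPM in mutant cells with 5 or more Ptgs2 UMIs, while Ptges is lower there (103 CPM) than in mutant cells with none (194 CPM).

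Immediate early genes, transcription factors and regulators that cells switch on soon after a stimulus, were lower in mutant basal cells, where Ptgs2 was higher. They were also lower in some classes where Ptgs2 was not higher. In the basal class 9 of 10 were lower and none higher in the mutant library, with a summed level of 5085 CPM in mutant cells and 14721 CPM in control cells. Jun had 1545 CPM in mutant and 3482 CPM in control basal cells, and Junb had 1095 CPM in mutant and 2593 CPM in control ones. Atf3 had 660 CPM in mutant and 2416 CPM in control basal cells, and Fos had 191 CPM in mutant and 1564 CPM in control ones. In the suprabasal class 9 of 10 were lower as well, and in the Langerhans or dendritic cell-like class 8 of 10. Of all genes, 15.1% were lower in the basal, 16.3% in the suprabasal and 8.63% in the Langerhans or dendritic cell-like class. In cluster 15 none passed in either direction. Where Ptgs2 was not higher, 8 of 10 were lower in cluster 14, 5 in the melanocyte-like and 5 in the pericyte-like class. The shares of all genes lower there were 2.27%, 3.02% and 2.42%. In the outer root sheath class none was lower. Within each library their summed level was higher in basal cells with 5 or more Ptgs2 UMIs than in those with 1 to 4 or 0, at 6144, 4095 and 4168 CPM in mutant cells and 17540, 14430 and 12470 CPM in control cells.

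Langerhans or dendritic cell-like cells had the highest Ptgs2 level of any class, but it came from cells that also held keratinocyte RNA. The class had 2169 CPM in mutant cells and 246 CPM in control cells, a ratio of 3.14 (2.96 to 3.32). In the control library this level and that of the basal class had overlapping intervals. The class also held basal keratinocyte markers at 11525 CPM summed in mutant cells and 13742 CPM in control cells, against 27525 CPM of its own markers in mutant cells and 12336 CPM in control cells. Cells whose share of Krt5 and Krt14 UMIs was at least 10% of the basal median numbered 31 in the mutant library and 40 in the control library. They held 1679 of the 1683 mutant Ptgs2 UMIs and all 308 control UMIs, at 2686 CPM in mutant cells and 267 CPM in control cells. The remaining 46 mutant and 20 control cells held 4 mutant UMIs (26.5 CPM) and 0 control UMIs, which allows up to 31.1 CPM at 3 counts. In the keratin-poor cells Ptgs2 was thus near the limit of detection in both libraries.

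Ptgs1, the constitutive cyclooxygenase, was concentrated in differentiating keratinocytes rather than in the basal layer. The suprabasal class had 284 CPM in mutant cells (267 to 302) and 220 CPM in control cells (197 to 245), a ratio of 0.37 (0.19 to 0.55) that did not pass the rule. It held 63.8% of all Ptgs1 UMIs of the mutant library and 37.4% of those of the control library, with 4.23% of all mutant UMIs and 1.17% of all control UMIs. The upper follicle class rose, with 54.1 CPM in mutant cells and 20.5 CPM in control cells, a ratio of 1.40 (0.99 to 1.82) that was 0.60 with thinned cells and 0.94 as a mean over cells, both short of the rule. The basal class had 27 CPM in mutant cells and 20.9 CPM in control cells. The other 20 compared classes, the Langerhans or dendritic cell-like class apart, stayed under 20 CPM in both libraries. A Ptgs1 UMI was found in 29.3% of mutant and 18.2% of control suprabasal cells thinned to 1500 UMIs, against 0.232% of mutant and 0.0474% of control T cell or NK cell-like cells. Unthinned, the suprabasal shares were 67.2% of mutant cells and 57.0% of control cells, at a median of 7595 UMIs in mutant and 7674.5 UMIs in control cells. The unthinned shares of T cell or NK cell-like cells were 0.181% of mutant and 0.0818% of control cells, at a median of 1929 UMIs in mutant and 2257 UMIs in control cells.

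In the Langerhans or dendritic cell-like class Ptgs1 was present in both kinds of cell and at a higher level in the keratin-poor ones. The class had 82.5 CPM in mutant cells and 69.6 CPM in control cells, with overlapping intervals. Its keratin-poor cells had 225 CPM in the mutant library (23 of 46 cells with a UMI) and 259 CPM in the control library (10 of 20 cells). Its keratin-rich cells had 48.0 CPM in the mutant library (17 of 31 cells with a UMI) and 53.8 CPM in the control library (30 of 40 cells). They are deeper, with a median of 15490 UMIs in mutant and 25870 UMIs in control cells, against 3000 UMIs in mutant and 2543 UMIs in control keratin-poor cells.

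Ptges, the inducible synthase of prostaglandin E, was highest in interfollicular keratinocytes, joined in mutant skin by pericyte-like cells, and was higher in 3 mutant classes. The suprabasal class had 186 CPM in mutant cells and 82.4 CPM in control cells, a ratio of 1.18 (0.90 to 1.46). The basal class had 145 CPM in mutant cells and 93.9 CPM in control cells, a ratio of 0.62 (0.51 to 0.74) below the size rule. In mutant skin the suprabasal level exceeded the basal one beyond their intervals, and in control skin those intervals overlapped. The upper follicle class had 44.7 CPM in mutant cells and 19.0 CPM in control cells, a ratio of 1.24 (0.81 to 1.68), but 6 of 12 alternatives ended this call and the ratio was 0.41 with doublets kept. The pericyte-like class had 150 CPM in mutant cells and 11.8 CPM in control cells, a ratio of 3.67 (1.73 to 6.76) from 45 mutant and 2 control UMIs. Of those 45 UMIs, 20 lay in 3 cells. In the dermal papilla, dermal sheath and fibroblast-like classes and in cluster 15 the mutant values were 45.2 to 71.4 CPM and the control values 30.6 to 41.7 CPM, and none passed the rule. All 10 classes in which Ptges was measured had a ratio above 0. Some, such as the upper follicle and pericyte-like classes, reached 20 CPM only in the mutant library, which fixed their direction in advance.

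Ptgds, the lipocalin-type synthase of prostaglandin D, was a melanocyte gene in these data and had nearly the same level in both libraries. Melanocyte-like cells had 18274 CPM in the mutant library (351506 UMIs) and 17496 CPM in the control library (331381 UMIs), a ratio of 0.06 (0.06 to 0.07). They held 97.7% of all Ptgds UMIs in the mutant library and 97.4% in the control library, and 99.4% of melanocyte-like cells had a UMI in either library. Mutant melanocyte-like cells lay mostly in cluster 4 (1229 of 1525) and control ones in cluster 6 (1041 of 1405).

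Outside melanocytes Ptgds followed the melanocyte genes. The other 23 classes had 68.3 to 379 CPM (median 120) in the mutant library and 22.3 to 973 CPM (median 74.2) in the control library. For each UMI of Dct, Pmel, Tyrp1 and Mlana summed there were 0.356 Ptgds UMIs in mutant melanocyte-like cells and 0.402 in control ones. In the other classes this quotient was 0.244 to 0.451 in the mutant library and 0.295 to 0.802 in the control library. Cells with 5 or more Ptgds UMIs outside the melanocyte class numbered 121 in the mutant library and 101 in the control library. They held 2497 of 8179 mutant UMIs and 4205 of 8998 control UMIs, and 98 of the mutant and 78 of the control cells also had at least 10 UMIs of the 4 melanocyte genes.

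Outside melanocytes 8 Ptgds ratios passed the size rule, and the 4 negative ones depended on few cells. It was lower in cluster 15 (-1.36), the suprabasal (-2.00), fibroblast-like (-2.29) and pericyte-like (-1.84) classes of mutant skin. Without the 3 cells with most Ptgds UMIs in each library, these ratios were 0.45, 0.93, 0.37 and 0.41. In the fibroblast-like class 195 of 238 control UMIs came from 1 cell. It was higher in the basal (1.26), dermal papilla (1.38), hair cortex or cuticle (3.58) and Langerhans or dendritic cell-like (2.17) classes. Without such cells the ratio was 1.22 in the basal, 1.66 in the dermal papilla, 1.31 in the cortex or cuticle and 2.36 in the Langerhans or dendritic cell-like class. Without any cell of 5 or more Ptgds UMIs, all 23 classes had a ratio above 0, from 0.26 to 1.73 with a median of 0.96. In those remaining cells the 4 melanocyte genes had 145 to 890 CPM (median 285) in the mutant library and 53.3 to 370 CPM (median 116) in the control library. A level of Ptgds in these classes apart from melanocyte RNA was not shown, and the part of free or melanocyte RNA in the ratios was not tested.

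**Figure D3:**
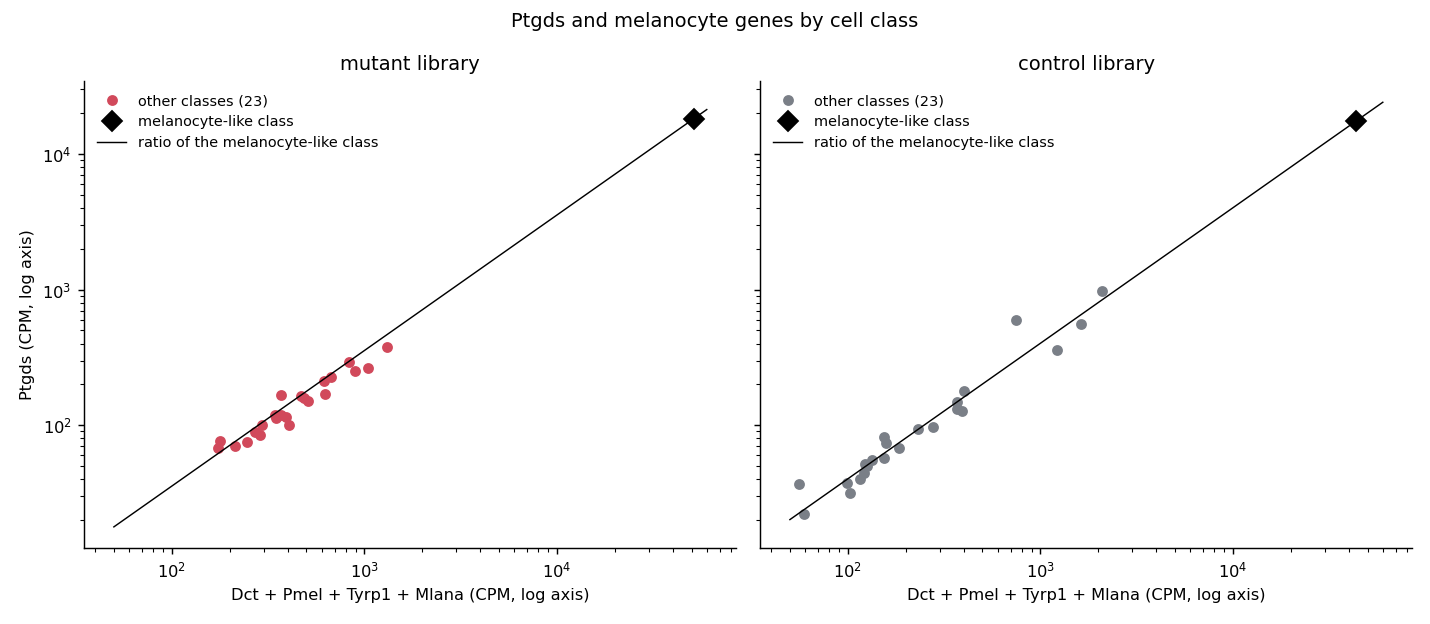
Ptgds CPM (vertical, log axis) against the summed CPM of Dct, Pmel, Tyrp1 and Mlana (horizontal, log axis) for each compared class, mutant library left and control library right, with the melanocyte-like class as a black diamond and its quotient as a line. The line is at 0.356 in the mutant library and 0.402 in the control library. The 23 other classes have quotients of 0.24 to 0.45 in the mutant library and 0.30 to 0.80 in the control library.

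Ptger4, a receptor for prostaglandin E, was highest in interfollicular keratinocytes in mutant skin. In control skin the basal class, cluster 14 and the Langerhans or dendritic cell-like class had overlapping intervals. Of the Ptger4 UMIs in the Langerhans or dendritic cell-like class, its keratin-rich cells held 71 of 72 in the mutant library and 92 of 96 in the control library. Its keratin-poor cells held 1 mutant and 4 control UMIs. The suprabasal class rose, with 121 CPM in mutant cells (110 to 132) and 51.2 CPM in control cells (40.4 to 63.9), a ratio of 1.24 (0.89 to 1.61) that was 0.83 with stricter cell filters, short of the rule. The basal class had 96.2 CPM in mutant cells and 73.2 CPM in control cells, a ratio of 0.39 (0.26 to 0.53), and the upper follicle class 68.2 CPM in mutant cells and 50.1 CPM in control cells, and neither passed the rule. In mutant skin the suprabasal level was above the basal one beyond their intervals, and in control skin it was below it. In the T cell or NK cell-like class Ptger4 fell, with 12.2 CPM in mutant cells (27 UMIs) and 27.7 CPM in control cells (174 UMIs), a ratio of -1.19 (-1.83 to -0.60). Cluster 9 held 1030 of the 1105 mutant cells of that class and had 11.1 CPM, while clusters 2 and 11 held 1468 and 940 of the 2445 control cells and had 25.1 and 32.2 CPM. With the 3 clusters weighted equally the ratio was -0.73, and with TMM scaling it no longer passed the rule. Cluster 14, led by Il17a and Il17f, had 38.4 CPM in mutant cells and 75.3 CPM in control cells, a ratio of -0.97. Ptger4 overlaps Ttc33 on the other strand, and whether the counting used strand is not given in the sources used here.

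Hpgd, the dehydrogenase that takes the first step of prostaglandin breakdown, was a gene of dermal cells and fell in 3 of them. Dermal sheath cell-like cells had the highest level, 131 CPM in mutant cells (101 to 167) and 169 CPM in control cells (133 to 213), a ratio of -0.38 (-0.88 to 0.13). Cluster 15 had 22.1 CPM in mutant cells and 99.5 CPM in control cells, a ratio of -2.17 (-2.78 to -1.61). The fibroblast-like class had 30.5 CPM in mutant cells and 96.4 CPM in control cells, a ratio of -1.66 (-2.38 to -0.96). The pericyte-like class had 5 mutant and 17 control UMIs, a ratio of -2.59 (-4.38 to -1.09). In control skin the levels of these 3 classes overlapped within their intervals. The cluster 15 signal lay in few cells, 4.26% of mutant and 5.41% of control cells, and 3 control cells held 74 of the 136 control UMIs. Without the 3 highest cells of each library its ratio was -2.35. With genes past the size rule left out of the clustering the ratio was -1.01 in cluster 15 and in the fibroblast-like class, and with thinned cells -1.19 in cluster 15 and -2.20 in the fibroblast-like class, none of which passed the rule. Dermal papilla cell-like cells had 15.1 CPM in mutant cells and 27.2 CPM in control cells, a ratio of -0.85.

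Hpgd was low in keratinocytes. The outer root sheath class had 12.8 CPM in mutant cells and 13.7 CPM in control cells, yet by its size it held 32.1% of all Hpgd UMIs in the mutant library and 29.8% in the control library. The basal class had 16 UMIs or 1.72 CPM in mutant cells and 146 UMIs or 12.1 CPM in control cells, a ratio of -2.82 (-3.66 to -2.07) under the 20 CPM that the rule asks for. In all 5 classes in which Hpgd was measured its ratio was below 0. The dermal papilla and pericyte-like classes reached 20 CPM only in the control library, so their direction was fixed in advance.

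**Figure D4:**
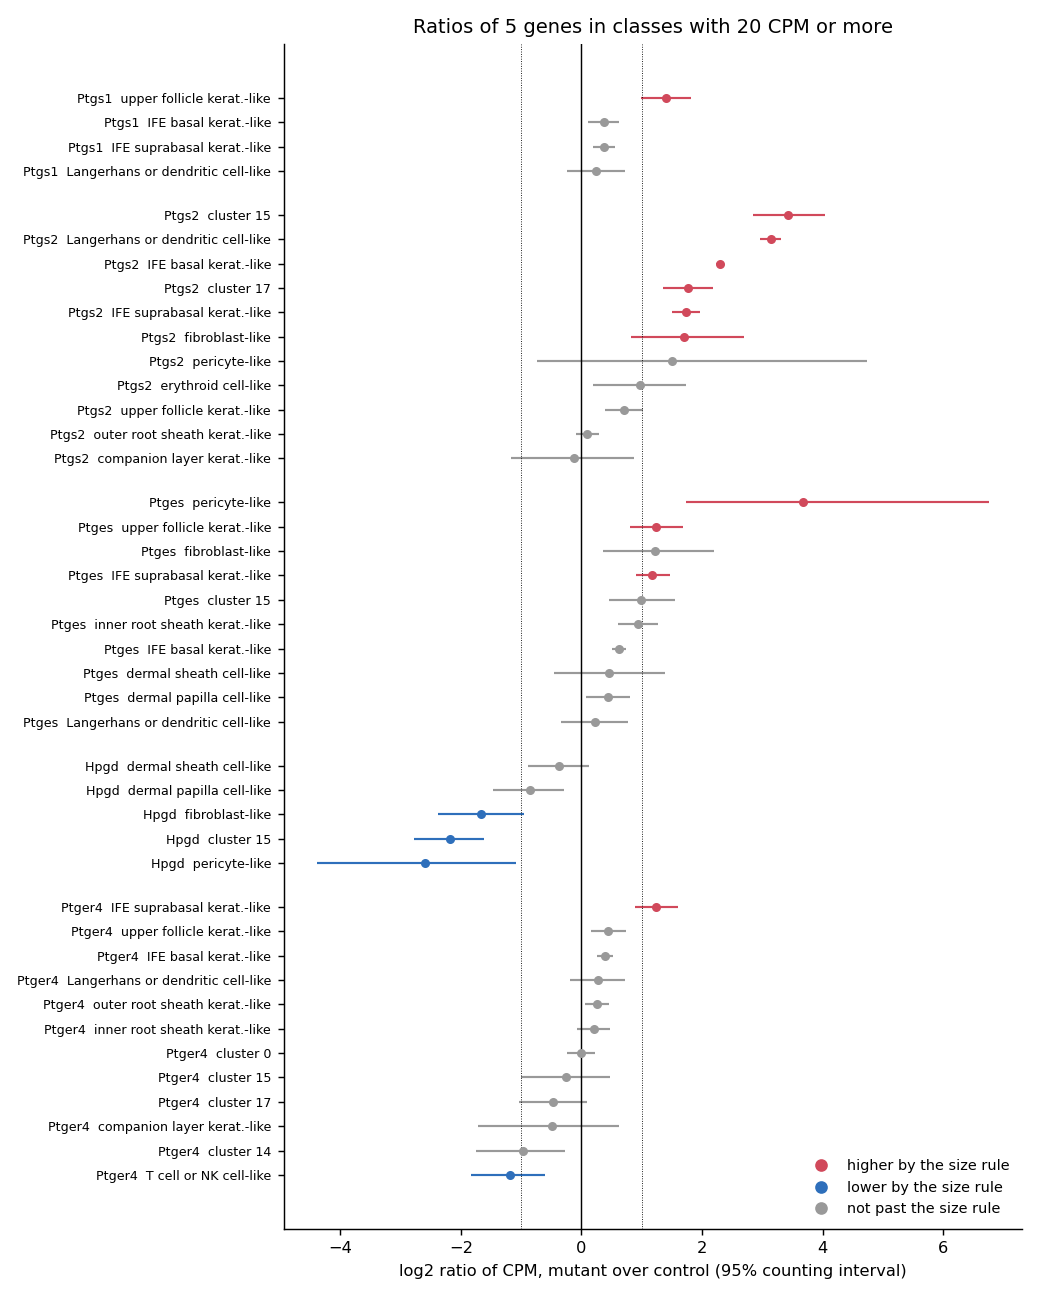
Log2 ratio of CPM, mutant over control, with its 95% counting interval for Ptgs1, Ptgs2, Ptges, Hpgd and Ptger4 in every compared class with 20 CPM or more, red where higher and blue where lower by the size rule and grey otherwise. Ptgs2 has 6 red points and no blue one, the highest in cluster 15 at 3.42, and Hpgd has 3 blue points and no red one.

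Summed over all cells the libraries differed in the same directions, and their makeup by class differed as well. Ptgs2 had 169 CPM in mutant cells and 38.2 CPM in control cells, a ratio of 2.15 (2.10 to 2.20), and 2.01 with the classes given equal shares in both libraries. Hpgd had 3.57 CPM in mutant cells and 8.40 CPM in control cells, a ratio of -1.23 (-1.42 to -1.05), and -1.05 with equal shares. Ptges had 34.1 CPM in mutant cells and 17.7 CPM in control cells, a ratio of 0.94 and 0.74 with equal shares. These 3 ratios kept most of their size with equal class shares. Equal shares do not hold the clusters within a class equal, and the basal Ptgs2 ratio was 0.56 with its clusters weighted equally. The part of makeup in these ratios was not tested. Ptgs1 had 18.8 CPM in mutant cells and 6.86 CPM in control cells, and its ratio of 1.46 was 0.44 with equal shares, beside 4.0% of mutant and 1.26% of control cells in the suprabasal class. Ptgds had a ratio of 0.63 and of 0.07 with equal shares, beside 13.8% of mutant and 10.3% of control cells in the melanocyte class. Ptger4 had 32.4 CPM in mutant cells and 27.2 CPM in control cells, a ratio of 0.25 and 0.26 with equal shares.

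The pathway list held 41 genes of the gene table. The 35 beside the members gave 208 measured pairs, of which 8 were higher and 15 lower in the mutant library. Of all measured genes, 1.83% (Schwann cell-like) to 23% (suprabasal) passed the rule in a class. In the upper follicle class 3 of 11 list genes were lower and none higher, against 10.2% lower and 5% higher of all genes. In the basal class 2 of 12 were lower and none higher, against 15.1% lower and 4.9% higher of all genes. Among breakdown enzymes Cbr1, a carbonyl reductase that also acts on prostaglandins, fell in 7 classes, with 10.5 CPM in mutant cells and 41.8 CPM in control cells of the basal class and a ratio of -1.99 (-2.32 to -1.68). Ptgr1, a prostaglandin reductase, fell only in the inner root sheath class (-1.03). Among synthases Akr1c18, a steroid dehydrogenase that also makes prostaglandin F, fell in the upper follicle class, to 21.5 CPM in mutant cells, against 236 CPM in control cells, a ratio of -3.46 (-3.80 to -3.13). It was also lower in the Langerhans or dendritic cell-like class, with 0 mutant and 140 control UMIs, at least 29.0-fold lower when the mutant library is set at 3 counts. Fam213b, a synthase of prostaglandin F, fell in the basal (-1.14), upper follicle (-1.14) and Langerhans or dendritic cell-like (-2.77) classes, and Akr1b3 fell in cluster 14 (-1.33). Hpgds, the hematopoietic synthase of prostaglandin D, was highest in the T cell or NK cell-like class, with 406 CPM in mutant cells and 218 CPM in control cells, a ratio of 0.90 short of the rule. It rose in the Langerhans or dendritic cell-like class, to 327 CPM in mutant cells, against 154 CPM in control cells. Keratin-rich cells made up 31 of the 77 mutant and 40 of the 60 control cells of that class. The part of this makeup in its calls, here and below, was not tested.

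Receptors and the uptake transporter gave few further calls. Ptger3, another receptor for prostaglandin E, was highest in dermal papilla cell-like cells, with 68.0 CPM in mutant cells and 122 CPM in control cells, and fell in the T cell or NK cell-like class, with 4.96 CPM in mutant cells and 23.4 CPM in control cells (-2.24, -3.27 to -1.36). Ptgir, the prostacyclin receptor, rose in cluster 15 (1.53). Slco2a1 was highest in the basal class, with 247 CPM in mutant cells and 139 CPM in control cells, a ratio of 0.83 short of the rule. It rose in cluster 15 (2.20) and in the fibroblast-like class, with 59.0 CPM in mutant cells and 11.8 CPM in control cells (2.33, 1.03 to 4.0). Of the phospholipases, Pla2g2f had the highest level, 276 CPM in mutant and 189 CPM in control suprabasal cells (0.55). Pla2g2e and Pla2g2f rose in the hair cortex or cuticle class (1.88 and 2.14), Pla2g5 in the Langerhans or dendritic cell-like class (2.76) and Plaa, an activator of phospholipase, in the suprabasal class (1.12). In cluster 15 Ptgs2, Slco2a1 and Ptgir were thus higher and Hpgd and Cbr1 lower in the mutant library. Ptgds also passed there as lower (-1.36), but its ratio was 0.45 without the 3 highest cells of each library. Cells of cluster 15 were not split by keratin share, so the part of keratinocyte RNA in these values was not tested.

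The genes most alike to each member were taken over the 24 classes from the lower of its correlations in the 2 libraries, on log2(CPM + 10), among 3866 genes. The classes share their libraries, so the values are a description. The lists depend on the pseudocount: with 1 or 100 in place of 10, Tslp stayed among the 3 genes for Ptgs2, Sptlc3 and Krt1 for Ptgs1, Mlana and Trpm1 for Ptgds, Ndufa4l2 and Tmem43 for Ptges and Gata3 for Ptger4. None of the 3 stayed for Hpgd, where Ccdc80 entered with either. Ptgs2 was most like Tslp (r = 0.87 in the mutant library and 0.85 in the control library), Epgn, an epidermal growth factor family ligand (0.81 in the mutant library and 0.82 in the control library), and the AP-1 subunit Fosl1, with the same values. Tslp and Epgn also stood higher in the mutant library, Tslp with 3279 CPM in mutant and 473 CPM in control basal cells. Epgn had 1757 CPM in mutant and 283 CPM in control basal cells. Ptgs1 was most like Sptlc3, Elf3 and the suprabasal keratin Krt1 (0.93 in the mutant library and 0.91 in the control library). Ptgds was most like the melanocyte genes Mlana, Trpm1 and Dct (0.99 for Mlana in both libraries). Ptges was most like Ndufa4l2 (0.85 in the mutant library and 0.79 in the control library), Tmem43 and Sema3c. Hpgd was most like the mesenchymal genes Prrx2, C1ra and Wisp1 (0.89 for Prrx2 in the mutant library and 0.90 in the control library). Ptger4 was most like Zc3h12a, an RNase that limits inflammatory transcripts (0.84 in the mutant library and 0.79 in the control library), Gata3 and Fosl1.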

How the data were processed

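Single-cell RNA was captured with 10x Genomics 3′ v3 chemistry, per the labels' protocols. The authors deposited unnormalized UMI counts for each gene and barcode. Cell Ranger 3.0.2 made them, per the file headers. The submitters' processing notes also name Seurat (3.0.0, 3.1.0) and give GRCm38 (mm10) as the build. A 3′ tag is counted once per molecule, so levels do not scale with gene length. Barcodes with under 500 genes or over 15% mitochondrial UMIs were dropped. Scrublet (scanpy 1.11.5) set no usable threshold in the control library, so the mutant threshold was used for both, which removed 412 mutant cells (3.60%) and 516 control cells (3.65%). Cells were scaled to 10000 counts, and 2000 variable genes without cell cycle, X- and Y-linked list and pathway genes went through 30 components and 15 neighbours into Leiden clustering (leidenalg 0.10.2, resolution 1), both libraries together. Clusters were named "X-like" from marker sets of 29 cell types or keep their number, and classes rest on these rebuilt names.

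The UMIs of a gene in a class were summed within each library and scaled by the class total (CPM), with exact Poisson intervals. Ratios carry exact conditional intervals and shares of UMIs or cells exact Clopper-Pearson ones (scipy 1.17.1), all at 95%. They cover counting error only. Which samples came from separate animals is not labelled. The arithmetic was tested on simulated data. TMM and size factors came from edgeR 4.0.16 and DESeq2 1.42.0. The members, gene lists and comparisons were chosen with earlier results of these data known. Named genes are the members, every pathway list gene past the size rule, the highest gene per role, the 3 genes most alike to each member and up to 4 immediate early genes by level. Genes named outside this rule, such as leading genes of clusters, were chosen after their values were seen. Gene coordinates follow GENCODE vM21 and promoters RefSeq.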

Additional observations from a re-analysis of the deposited data

Results flagged for a closer look

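Ptgds had opposite ratios in classes outside the melanocytes, 3.58 in the hair cortex or cuticle class and -2.29 in the fibroblast-like class. The difference between these classes was not tested, and both values rest on 1 or a few cells with many Ptgds UMIs.

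Ptger4 also had opposite ratios, 1.24 in the suprabasal class and -1.19 in the T cell or NK cell-like class. The difference between the classes was not tested.

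Ptgs2 had 413 CPM in the mast cell-like class of the mutant library and 14.6 CPM in that of the control library. This class had 48 mutant and 37 control cells, too few for the comparisons above. In the mutant library all 81 UMIs lay in the 41 cells in which Lyz2, Il1b and Cd14 exceeded the mast cell genes, 17 of them with a UMI. The 6 mutant and 23 control cells in which mast cell genes led held no Ptgs2 UMI, which allows up to 249.5 CPM in those mutant and 42.4 CPM in those control cells at 3 counts. The kinds of cell in the class thus differ between the libraries.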

How the results depend on the processing

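Among 401 alternative values for 39 results, 278 were scored as the same, 117 as moved and 6 as reversed. Ratios were the same within the counting interval, counts of calls within 1.5 times and lists of alike genes by the genes shared. The 278 include every called ratio under a minimum of 100 CPM and under no minimum. A minimum can change a call but not a ratio, so the label of these values was fixed in advance. The higher Ptgs2 ratios in the suprabasal class and in cluster 15 kept their call under every alternative run. That of the Langerhans or dendritic cell-like class kept it under all but 1, its low-keratin cells, which held 4 mutant and 0 control UMIs and give no ratio. The basal Ptgs2 ratio of 2.29 was 2.55 with TMM factors, 2.59 with DESeq2 size factors, 2.18 as a mean over cells, 2.22 with thinned cells, 2.10 with each library clustered on its own, 2.20 with genes past the size rule left out of the clustering, 2.22 with another random seed and 0.56 with clusters weighted equally. Means over cells and over clusters have no interval.

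The 15 higher calls of members ranged from 10 to 22. Runs that clustered the cells again found fewer classes, so some called pairs were absent from them. At resolution 0.5, 8 of the 15 higher and 5 of the 8 lower pairs were found. Of the 8 lower pairs, 6 were found with stricter filters, with Scrublet calls kept and with separate clustering. The same number was found with genes past the size rule left out and with another seed. The 8 lower calls were 0 with thinned cells, 5 with stricter cell filters, 3 with Scrublet calls kept, 3 at resolution 0.5, 4 with separate clustering, 5 with genes past the size rule left out, 5 with a minimum of 100 CPM, 12 with no minimum, 4 with another seed and 5 without the 3 highest cells. Ptgds reversed in cluster 15 to 0.53 with stricter filters, in the pericyte-like class to 2.06 with separate clustering, and without the 3 highest cells to 0.45 in cluster 15, 0.93 in the suprabasal, 0.37 in the fibroblast-like and 0.41 in the pericyte-like class. The other pathway genes gave 14 higher calls with TMM, 15 with DESeq2, 2 at 100 CPM and 21 with no minimum, and 4 lower calls at 100 CPM and 26 with no minimum.

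Over all cells Ptgs1 was 1.77 when thinned. Ptgs2 was 2.24 with TMM, 2.25 with DESeq2, 2.20 thinned and 2.21 with stricter filters. Ptgds was 0.72 with TMM, 0.73 with DESeq2, 0.48 as a mean over cells, 0.51 thinned, 0.53 with stricter filters and 0.62 with doublets kept. Ptges was 1.04 with TMM, 1.05 with DESeq2, 1.35 as a mean over cells and 1.48 thinned. Hpgd was -0.99 as a mean over cells and -1.0 thinned, and Ptger4 was 0.35 with TMM, 0.36 with DESeq2 and 0.18 as a mean over cells. The cause of these moves was not tested.

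Leaving out a replicate was not run, since the matrices pool the samples. No paired analysis was possible because each group is 1 pooled matrix whose cells carry no sample label. The alternatives of another seed, equal cluster weights, cells left out and low-keratin cells were chosen after seeing the data.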
